A study of Mus musculus with 8 samples.

Results

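The genes described here are the amino acid and peptide transporters of mouse solute carrier (SLC) families 1, 3, 6, 7, 15, 36, 38 and 43. They were taken by gene symbol from the array's annotation, using probe sets (groups of short probes that report 1 transcript) assigned to a single gene. There were 65 such transporters among 18194 genes with a single-gene probe set, and 3 opposite-strand genes with similar symbols were left out. A filter on low signal, at a mean of 5.20 log2, left 48 of the 65 for testing among 13119 genes, and 17 were too dim.

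Expression was measured in C57BL/6 mice that all carried the Min mutation of Apc, Apc (Min/+), which gives rise to intestinal tumours, and 2 floxed alleles of Spint1, Spint1 (flox/flox). Spint1 encodes HAI-1, a membrane-bound inhibitor of serine proteases. Control mice expressed HAI-1, and HAI-1 deficient mice also carried Vil-Cre, a Cre transgene driven by the villin promoter, which acts in intestinal epithelium and not in the other cells of the tissue. There were 4 groups of 2 arrays each: non-tumour small-intestinal mucosa and small-intestinal tumours, from control and from deficient mice, with the mice fed an AIN-76 diet and no ages given. Whether both arrays of a group stem from separate mice is not stated in the labels, so a p-value here covers just the spread among these samples. With 2 arrays per group, precision is limited by the number of arrays.

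As background, dietary protein reaches the blood through paired steps in the enterocyte, the absorptive cell of the villus. Peptidases at its brush border cut peptides, transporters of the apical membrane take up di- and tripeptides and free amino acids, and other transporters release amino acids through the basolateral membrane. Dividing cells rely on a different set, with exchangers such as LAT1 and ASCT2 and the sodium-coupled SLC38 carriers of system A bringing in leucine, glutamine and alanine. Several of the SLC7 proteins are light chains that reach the membrane only when bound to a heavy chain of family 3.

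The arrays differed in technical measures too. On the second control tumour array the 3' Gapdh control probes were 25.9 times as bright as the 5' ones, where the remaining 7 arrays gave 0.803 to 1.77. Poly-A spike-in signal was high on 3 arrays (8.12 to 8.51 log2) and low on 5 (6.36 to 7.12). The high arrays were the second of control mucosa, of deficient mucosa and of deficient tumours. Both control tumours were low, so spike-in level was not balanced between control tumours and control mucosa. The targeted gene, Spint1, read 12.75 to 13.06 log2 on the 4 control arrays and 11.76 to 12.46 on the 4 deficient arrays, a difference of -0.84 (exact permutation test, two-sided p = 0.0286, the smallest this design can give). The 7 enterocyte markers found averaged 14.06 to 14.95 log2 on every array, which gives the signal of these genes and not the share of enterocytes. All values below are log2 array signals, and a difference is tumour minus mucosa or deficient minus control. Levels of different genes cannot be compared on this scale.

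In control mice, tumours differed from mucosa in 24 of the 48 transporters tested, of which 12 rose and 12 fell (limma, adjusted p under 0.05, n = 2 per group). Over all 13119 genes, 28.8% were called in this comparison, 21.2% as higher and 7.64% as lower, against 25% of the transporters in each direction. The fallers were 5 of the 6 brush border and all 3 basolateral transporters tested, with 4F2hc, PAT1, Slc7a15 and the serotonin transporter. The risers were the exchangers ASCT1, ASCT2, LAT1 and y+LAT2, 3 system A carriers and a mixed group. The transporters' median difference was 0.07, against 0.24 over all genes, and their differences ran from -3.36 to 4.89. Both tumour arrays lay above both mucosa arrays for 20 transporters, or 41.7%, against 45.3% of all genes, and below them for 18, or 37.5%, against 23.6%. Since the tissue is a mixture, fewer cells of a type and less RNA per cell cannot be told apart in any of these values.

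At the brush border, 5 of the 6 transporters tested fell in control tumours, with a median difference of -1.38. Slc15a1, which encodes PEPT1, the proton-coupled carrier of di- and tripeptides, read 12.72 and 13.00 in control mucosa, 11.60 and 11.30 in tumours of control mice, 12.13 and 12.51 in deficient mucosa, and 10.32 and 9.77 in deficient tumours. Every tumour array lay below every mucosa array, and both deficient tumours lay below both control tumours. The control tumours were lower than control mucosa by 2.67-fold (-1.42 ± 0.30, SE, adjusted p = 0.0124).

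Slc6a19, which encodes B0AT1, the main sodium-coupled carrier of neutral amino acids, read 14.04 and 14.12 in control mucosa, 12.11 and 11.72 in tumours of control mice, 14.00 and 13.88 in deficient mucosa, and 11.05 and 12.39 in deficient tumours. The 4 mucosa arrays lay within a narrow range and all 4 tumour arrays lay below it, with the 2 deficient tumours on either side of the control tumours. The fall in control mice was 4.48-fold (-2.16 ± 0.42, adjusted p = 0.0095). Slc6a20a, which encodes the proline carrier SIT1, read 12.54 and 13.09 in control mucosa, 11.58 and 11.38 in tumours of control mice, 12.50 and 12.85 in deficient mucosa, and 10.57 and 10.73 in deficient tumours. The tumour and mucosa arrays did not overlap, and the fall in control mice was 2.52-fold (-1.33 ± 0.28, adjusted p = 0.0128).

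The heteromeric exchanger of cystine and dibasic amino acids is built from rBAT, the heavy chain, and b0,+AT, the light chain, and in humans mutations of either gene cause cystinuria. The heavy chain gene Slc3a1 read 12.90 and 13.24 in control mucosa, 11.55 and 11.35 in tumours of control mice, 12.87 and 12.77 in deficient mucosa, and 10.49 and 11.54 in deficient tumours. The light chain gene Slc7a9 read 13.95 and 13.81, 12.60 and 12.98, 13.63 and 13.38, and 12.40 and 12.34 in the same order. For both chains every tumour array lay below every mucosa array. In control mice Slc3a1 fell 3.08-fold (-1.62 ± 0.36, adjusted p = 0.0153) and Slc7a9 2.13-fold (-1.09 ± 0.25, adjusted p = 0.0166). Slc1a1, which encodes the glutamate carrier EAAT3, read 10.04 and 10.39 in control mucosa and 8.69 and 9.73 in control tumours, and its difference of -1.005 ± 0.57 did not pass (adjusted p = 0.225). Dimmer probe sets of Slc1a1 gave -1.46 ± 0.62 and -1.71 ± 0.36, so the size and spread of its difference depend on the probe set.

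All 5 brush border calls depended on single arrays. Their direction could not change when an array was left out, since the tumour and mucosa arrays of these genes did not overlap. Those of Slc15a1 and Slc6a20a were lost without the second array of control mucosa or of control tumours. That of Slc6a19 was lost without the second control tumour, that of Slc3a1 without the second control mucosa array or either control tumour, and that of Slc7a9 without either control mucosa array or the first control tumour. Adjusted p was 0.0555 to 0.0920 in these cases.

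**Figure D1:**
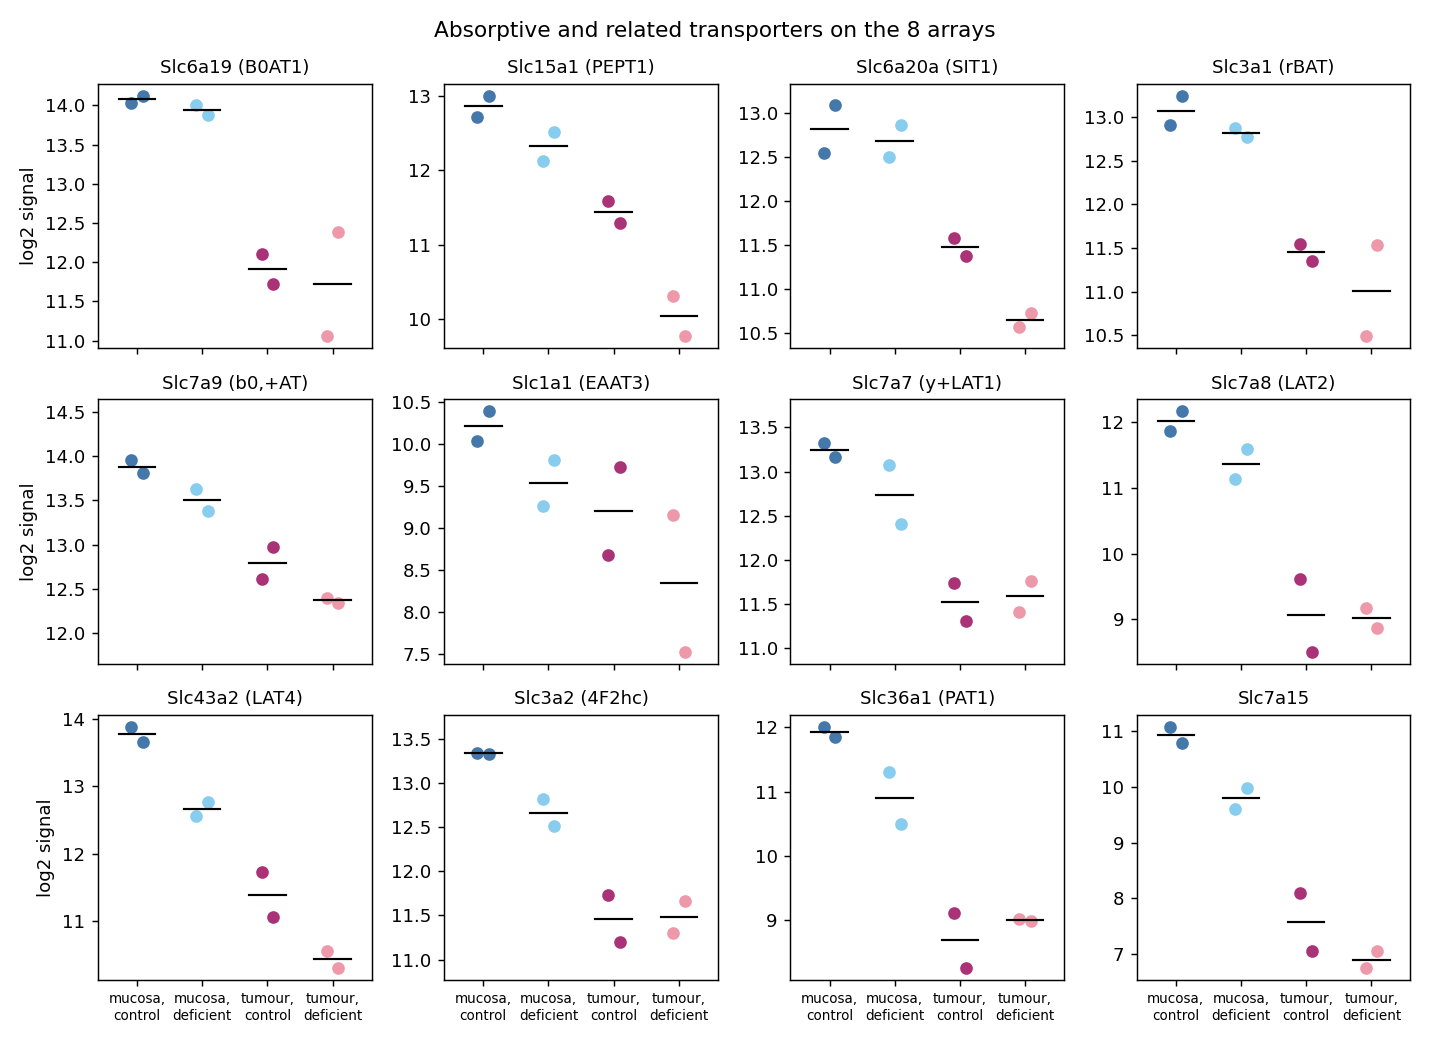
log2 signal (vertical axis) of absorptive transporters on each of the 8 arrays, 1 panel per gene, with 2 points per group and a bar at the group mean; from left to right the groups are control mucosa, HAI-1 deficient mucosa, control tumour and HAI-1 deficient tumour. For Slc15a1 the tumour arrays sit between 9.77 and 11.60 and the mucosa arrays between 12.13 and 13.00.

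The promoter of Slc3a1 is shown because, among the matched promoters of called transporters, it alone held the letters of the motif of HNF4, a factor of enterocyte differentiation. RefSeq promoters of build GRCm38.p6, from 250 bases before the start of transcription to 50 after it, were matched for 47 of the 65 transporters. They were searched on both strands for 8 motifs, and the shares given are of 32851 promoters of the same length. Capitals mark TTTATTG, a match to the CDX motif TTTATNG, 73 bases before the start, and CAAAGTCCA, the HNF4 motif, 39 bases before it. The window is chr17:85028097-85028396 on the plus strand.
Slc3a1: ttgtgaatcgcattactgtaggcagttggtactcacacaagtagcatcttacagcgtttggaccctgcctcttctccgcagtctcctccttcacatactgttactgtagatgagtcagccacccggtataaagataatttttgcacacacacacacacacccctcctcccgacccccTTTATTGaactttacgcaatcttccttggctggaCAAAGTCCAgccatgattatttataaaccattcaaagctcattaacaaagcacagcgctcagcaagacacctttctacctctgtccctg
CAAAGTCCA was present in 0.475% of all promoters and in 1 of the 12 fallers, all of which were matched, and TTTATNG was present in 10.9% of all and in 2 of the 12, those of Slc3a1 and Slc7a15. The palindromic HNF1 motif (0.00913% of all promoters) was found in none of the fallers or risers. CTTTGAT, the TCF/LEF motif, was present in 3.73% of all promoters and in none of the 12 fallers or of the 8 matched risers. The E-box CACGTG was present in 7.15% of all promoters and in 1 faller, Slc36a1. Where CTTTGAT occurs it can share letters with TGATGNAA, TGATTGGC and CAAAGTCCA. A match describes letters in a window and shows no binding.

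On the basolateral side, all 3 transporters tested fell in control tumours, with a median of -2.37. Slc7a8, which encodes LAT2, an exchanger of neutral amino acids, read 11.86 and 12.16 in control mucosa, 9.616 and 8.504 in tumours of control mice, 11.13 and 11.59 in deficient mucosa, and 9.17 and 8.87 in deficient tumours. The 4 tumour arrays lay at or below 9.616 and the 4 mucosa arrays at or above 11.13, and the fall in control mice was 7.74-fold (-2.95 ± 0.39, adjusted p = 0.00295).

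Slc43a2, which encodes LAT4, a carrier that lets branched-chain amino acids and phenylalanine out of the cell, read 13.87 and 13.66 in control mucosa, 11.73 and 11.07 in tumours of control mice, 12.56 and 12.77 in deficient mucosa, and 10.57 and 10.31 in deficient tumours. None of the 4 groups overlapped, and the fall in control mice was 5.17-fold (-2.37 ± 0.29, adjusted p = 0.00233). Slc7a7, which encodes y+LAT1, the exporter of cationic amino acids that is mutated in human lysinuric protein intolerance, read 13.33 and 13.17 in control mucosa, 11.74 and 11.31 in tumours of control mice, 13.07 and 12.40 in deficient mucosa, and 11.41 and 11.76 in deficient tumours. Its fall in control mice was 3.30-fold (-1.72 ± 0.32, adjusted p = 0.0077), with no overlap between tumours and mucosa. A dimmer probe set of Slc7a7 gave -4.10, so the size of this fall depends on the probe set. The 3 basolateral calls in control mice held under every alternative tried.

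Slc3a2, which encodes 4F2hc, the heavy chain shared by LAT1, LAT2, both y+LAT proteins and xCT, read 13.34 and 13.33 in control mucosa, 11.73 and 11.20 in tumours of control mice, 12.82 and 12.51 in deficient mucosa, and 11.30 and 11.66 in deficient tumours. It was high on all mucosa arrays and did not overlap the tumours. The fall in control mice was 3.66-fold (-1.87 ± 0.28, adjusted p = 0.00435). The heavy chain thus moved with LAT2 and y+LAT1, and opposite to the light chains LAT1 and y+LAT2 described below.

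The 3 remaining fallers had differences of -2.62 to -3.36. Slc36a1, which encodes PAT1, a proton-coupled carrier of small amino acids, read 12.005 and 11.84 in control mucosa, 9.11 and 8.26 in tumours of control mice, 11.31 and 10.49 in deficient mucosa, and 9.01 and 8.995 in deficient tumours (-3.24 ± 0.38, 9.44-fold lower in control tumours, adjusted p = 0.00197). Slc7a15, grouped with the SLC7 light chains, read 11.07 and 10.79, 8.09 and 7.05, 9.60 and 9.98, and 6.75 and 7.05 in the same order (-3.36 ± 0.37, 10.2-fold lower, adjusted p = 0.00178). Slc6a4, which encodes the serotonin transporter of neurons and enterocytes, read 10.79 and 11.25, 8.56 and 8.23, 10.58 and 10.39, and 8.32 and 7.67 (-2.62 ± 0.31, 6.16-fold lower, adjusted p = 0.00207). For these 3 genes every tumour array lay below every mucosa array, and the calls in control mice held under every alternative tried.

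Peptide-digesting enzymes of the brush border, which supply these carriers, were lower as well. Of 11 tested, 10 fell in control tumours, with a median of -2.39; they included Naaladl1 (-3.94 ± 0.99), the meprin subunit Mep1a (-3.46 ± 0.64), aminopeptidase N, Anpep (-3.17 ± 0.66), and aminopeptidase P2, Xpnpep2 (-3.06 ± 0.46). Of 6 partners in trafficking, ion balance and dipeptide breakdown, 3 fell, against the same 7.64% of all genes. They were Pdzk1, a brush border scaffold (-3.89 ± 0.56), and the cytosolic dipeptidases Pepd (-2.13 ± 0.22) and Cndp2 (-1.82 ± 0.32). Slc9a3, which encodes the sodium-proton exchanger NHE3, gave -0.17 ± 0.33 and did not pass (adjusted p = 0.732). Of the 7 enterocyte markers, 1 fell, the lactase gene Lct (-2.25 ± 0.61), and the median of the 7 was -0.20. Their summed linear signal was 197116 to 215307 in control mucosa, 170934 to 186839 in tumours of control mice, 188112 to 235951 in deficient mucosa and 147709 to 188902 in deficient tumours. Their part in the falls was not tested.

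Among the risers in control tumours, Slc38a4 had the largest difference of the 48. It encodes SNAT4, a system A carrier, and read 7.62 and 7.26 in control mucosa, 12.48 and 12.18 in tumours of control mice, 8.65 and 9.52 in deficient mucosa, and 11.48 and 11.89 in deficient tumours. The 4 groups did not overlap, with control mucosa lowest and control tumours highest. The rise in control mice was 29.7-fold (4.89 ± 0.35, adjusted p = 0.000866), and a further probe set gave 4.16.

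The other system A carriers rose less. Slc38a1, which encodes the glutamine carrier SNAT1, read 9.41 and 9.44 in control mucosa, 11.24 and 10.87 in tumours of control mice, 11.08 and 10.47 in deficient mucosa, and 10.96 and 11.14 in deficient tumours (3.10-fold in control mice, 1.63 ± 0.29, adjusted p = 0.00697). The control mucosa arrays stood alone at the low end, and the other 3 groups overlapped; a dimmer probe set gave 0.69. Slc38a2, which encodes SNAT2, a carrier induced by amino acid shortage, read 10.65 and 11.27, 12.17 and 12.32, 11.32 and 11.83, and 12.05 and 11.80 in the same order (2.44-fold, 1.29 ± 0.31, adjusted p = 0.0199). Its other probe sets gave 0.83 and 0.16, and the mean of the 3 was not called (0.76, adjusted p = 0.0762). The call was also lost without the first control mucosa array or either control tumour, with adjusted p of 0.0680 to 0.109.

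Both neutral exchangers rose in control tumours. Slc1a4, which encodes ASCT1, a carrier of alanine, serine and cysteine, read 6.60 and 6.79 in control mucosa, 8.98 and 9.33 in tumours of control mice, 7.66 and 8.40 in deficient mucosa, and 8.52 and 10.03 in deficient tumours (5.51-fold in control mice, 2.46 ± 0.50, adjusted p = 0.0108). All tumour arrays lay above all mucosa arrays. Slc1a5, which encodes the glutamine exchanger ASCT2, read 8.69 and 7.67, 9.51 and 9.33, 9.58 and 9.38, and 9.51 and 9.69 in the same order (2.37-fold, 1.24 ± 0.35, adjusted p = 0.0346). Here the 2 control mucosa arrays were low and spread apart, and the other 6 arrays lay within 9.33 to 9.69. Without the second control mucosa array the Slc1a5 difference was 0.73 (adjusted p = 0.151), and the call was also lost without either control tumour or either deficient mucosa array (adjusted p 0.0527 to 0.135). The Slc1a4 call was lost without the first control mucosa array or the second control tumour (adjusted p = 0.0564 and 0.0597).

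The promoters of Slc38a4 and Slc1a4 are shown because, of the 8 risers with a matched promoter, they were the 2 with any motif match. The Slc38a4 window, 1 of 3 listed for the gene, is chr15:97031164-97031463 on the minus strand, with the CCAAT-box letters TGATTGGC in capitals 64 bases before the start. The Slc1a4 window is chr11:20332664-20332963 on the minus strand, with TTGCATCA, the reverse strand of the C/EBP-ATF response element TGATGNAA, in capitals 4 bases before the start.
Slc38a4: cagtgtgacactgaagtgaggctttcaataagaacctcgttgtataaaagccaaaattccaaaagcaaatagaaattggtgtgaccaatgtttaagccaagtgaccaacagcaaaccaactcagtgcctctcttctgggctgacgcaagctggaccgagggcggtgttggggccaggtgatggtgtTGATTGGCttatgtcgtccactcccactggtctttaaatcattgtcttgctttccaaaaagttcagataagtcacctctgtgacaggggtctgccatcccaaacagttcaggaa
Slc1a4: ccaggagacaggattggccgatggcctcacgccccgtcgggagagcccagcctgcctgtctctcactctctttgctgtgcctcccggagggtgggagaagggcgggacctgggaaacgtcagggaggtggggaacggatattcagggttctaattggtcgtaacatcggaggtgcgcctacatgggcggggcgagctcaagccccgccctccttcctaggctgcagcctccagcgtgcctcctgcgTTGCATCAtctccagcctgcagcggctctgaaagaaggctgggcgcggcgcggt
TGATGNAA, the element through which ATF4 acts, was present in 3.97% of all promoters, in 1 of the 8 risers and in 1 of the 12 fallers (Slc7a7). TGATTGGC was present in 3.81% of all promoters, in 1 riser and in 1 faller (Slc43a2). The antioxidant response element TGACTCAGC, present in 0.454% of all promoters, was found in no called transporter.

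The light chains of the growth-associated exchangers rose while their heavy chain fell. Slc7a5, which encodes LAT1, the carrier of large neutral amino acids, read 7.51 and 7.84 in control mucosa, 10.15 and 8.77 in tumours of control mice, 9.14 and 9.03 in deficient mucosa, and 9.86 and 10.50 in deficient tumours (3.44-fold in control mice, 1.78 ± 0.46, adjusted p = 0.0252). Control mucosa was lowest, and the first control tumour was the highest control array. Without that tumour the difference was 1.09 (adjusted p = 0.0991), and without either control mucosa array adjusted p was 0.114 and 0.0684. Slc7a6, which encodes y+LAT2, an exchanger of arginine and glutamine, read 7.01 and 6.88, 9.39 and 9.06, 8.06 and 8.62, and 9.15 and 9.82 in the same order (4.86-fold, 2.28 ± 0.33, adjusted p = 0.00363). Its tumour arrays all lay above its mucosa arrays, and its call in control mice held under every alternative tried.

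Slc7a11, which encodes xCT, the cystine-glutamate exchanger, was dim. It read 4.60 and 5.37 in control mucosa, 6.03 and 5.34 in tumours of control mice, 5.09 and 5.66 in deficient mucosa, and 5.32 and 5.83 in deficient tumours, with overlap between all groups, and was not called (0.70 ± 0.40, adjusted p = 0.226). Slc6a14, which encodes ATB0,+, a carrier of neutral and cationic amino acids, fell under the filter at 3.39 to 5.59 on all arrays and was not tested.

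Further risers came from families with mixed roles. Slc36a4, which encodes PAT4, a carrier of proline and tryptophan, read 6.09 and 6.30 in control mucosa, 8.65 and 8.43 in tumours of control mice, 7.34 and 7.48 in deficient mucosa, and 8.21 and 9.35 in deficient tumours (5.06-fold, 2.34 ± 0.38, adjusted p = 0.00515). Tumours lay above mucosa in both genotypes, opposite to its relative Slc36a1. Slc43a3, a purine nucleobase carrier despite its family, read 6.37 and 6.16, 7.80 and 8.05, 7.70 and 7.15, and 7.63 and 7.66 in the same order (3.16-fold, 1.66 ± 0.27, adjusted p = 0.00563). For Slc43a3 control mucosa was lowest and control tumours highest, and the deficient groups, which overlapped, lay between them. Slc36a3 (PAT3) read 4.66 and 2.83 in control mucosa, under the filter value, and 6.21 and 5.72 in control tumours, a rise of at least 1.70-fold when the dim arrays are raised to that value (fitted difference 2.22 ± 0.57, adjusted p = 0.0246). With those arrays raised the Slc36a3 call was lost (0.76, adjusted p = 0.0949), and without the second control mucosa array its difference was 1.31 (adjusted p = 0.0761).

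The last 2 risers, the glycine transporter Slc6a9 (GlyT1) and the glutamate transporter Slc1a3 (GLAST), are named after their values were seen, to complete the 12. Slc6a9 read 8.34 and 7.92 in control mucosa, 9.60 and 9.57 in tumours of control mice, 8.90 and 8.68 in deficient mucosa, and 9.44 and 9.24 in deficient tumours (2.74-fold, 1.46 ± 0.25, adjusted p = 0.00677). Slc1a3 read 5.43 and 5.97, 7.23 and 6.99, 6.72 and 7.35, and 6.66 and 7.13 in the same order (2.66-fold, 1.41 ± 0.33, adjusted p = 0.0190). Control mucosa was lowest for both genes, and for Slc1a3 the other 3 groups overlapped. Dimmer probe sets over the filter gave 0.62 ± 0.43 for Slc6a9 and 2.68 ± 0.43 for Slc1a3, so both sizes depend on the probe set. The Slc1a3 call was lost without the first control mucosa array or either control tumour (adjusted p 0.0614 to 0.103).

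**Figure D2:**
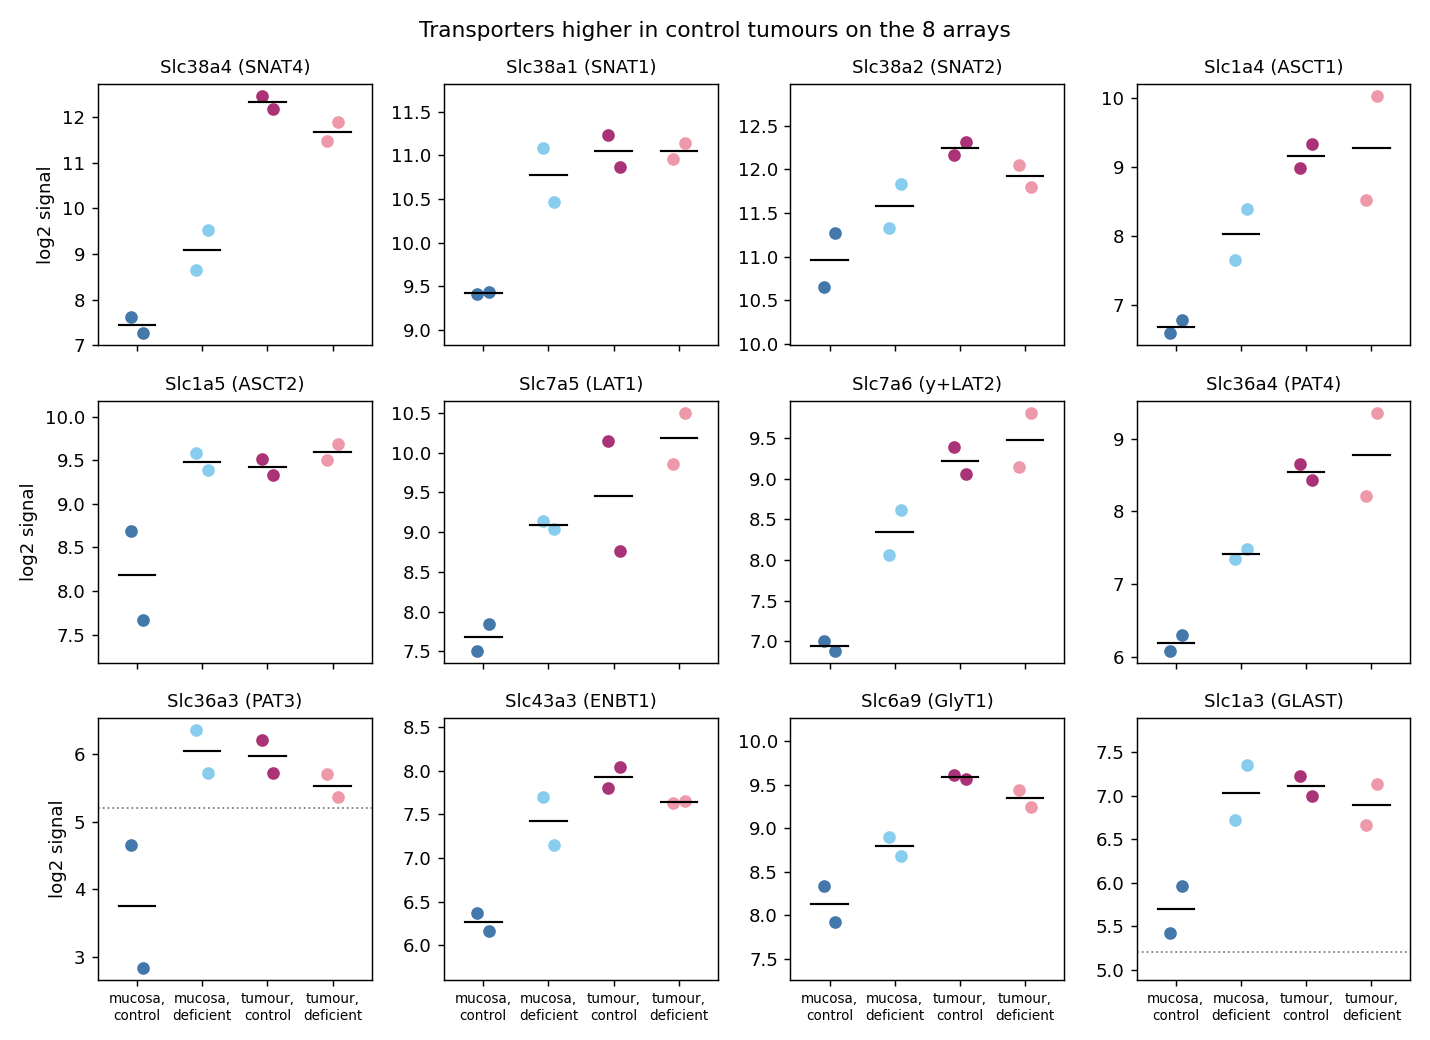
log2 signal (vertical axis) of transporters that were higher in tumours on each of the 8 arrays, 1 panel per gene, with 2 points per group and a bar at the group mean; the 4 groups are in the same order as in the plot of absorptive transporters. For Slc38a4 control mucosa sits at 7.26 and 7.62 and control tumours at 12.18 and 12.48, with both deficient groups between them.

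Markers of other cell types differed between the same arrays. Over all genes, 21.2% were called as higher and 7.64% as lower in control tumours, with a median of 0.24. All 5 fibroblast markers rose in control tumours (median 3.62; summed linear signal 1795 to 1999 in control mucosa, 25052 to 27576 in tumours of control mice, 3074 to 4568 in deficient mucosa and 17241 to 18226 in deficient tumours). All 4 smooth muscle markers rose too (median 3.42; 757 to 889, 6125 to 10953, 1492 to 2016 and 4906 to 8304 in that order). Of 3 proliferation markers 2 rose (median 1.70; 6957 to 7786, 13997 to 18761, 10555 to 11277 and 16978 to 19683). Of 3 neutrophil markers 2 rose (97 to 203, 2400 to 4479, 275 to 1437 and 1064 to 1301), and of 5 markers of T and NK cells 3 fell (17616 to 18388, 7368 to 9303, 6306 to 7938 and 2271 to 4149). None of these lists had a gene under the filter. Their part in the transporters' differences was not tested.

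Genes that cells induce through ATF4 when amino acids are short were described beside the risers, several of which are known targets of ATF4. Of 25 such genes tested, 9 rose and 1 fell in control tumours (median 0.62, against 0.24 over all genes). Beside each list here stand the shares over all genes in control tumours, 21.2% called as higher and 7.64% as lower. In deficient tumours 1 of the 25, Phgdh, was called as higher, against 2.45% of all genes. The serine synthesis enzyme Phgdh rose by 2.999 ± 0.28, Vldlr by 2.64 ± 0.46, the stress regulator Nupr1 by 2.21 ± 0.33 and the cystathionine synthase Cbs by 2.14 ± 0.33, while Ddit3 (CHOP), a target of the same pathway, fell by 1.25 ± 0.27. Of 17 enzymes of amino acid metabolism, 4 rose, including Arg1 (4.56 ± 0.40) and the glutamine synthetase Glul (2.57 ± 0.39), and 4 fell, including the alanine aminotransferase Gpt (-2.41 ± 0.48) and the urea cycle enzyme Otc (-2.05 ± 0.28). Of 13 genes of the mTORC1 and lysosome list, Eif4ebp1, an inhibitor of translation under mTORC1, rose (1.56 ± 0.28), and Rragd (-1.60 ± 0.43) and Lamtor2 fell.

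The other 24 transporters tested were not called in control tumours. The 4 genes tested of the CAT family, grouped here as cationic carriers, all had positive differences, 0.29 to 1.31 with a median of 0.94. The lowest was that of Slc7a4 (CAT4), and a dimmer probe set of that gene gave 1.28 ± 0.28. The arginine carrier Slc7a1 (CAT1) read 10.45 and 10.54 in control mucosa and 11.29 and 11.39 in control tumours, without overlap (0.84 ± 0.28, adjusted p = 0.0576). Slc43a1, which encodes the branched-chain carrier LAT3, read 5.74 and 5.97 in control mucosa and 7.28 and 6.48 in control tumours (1.02 ± 0.33, adjusted p = 0.0507), just outside the threshold. The lysosomal arginine sensor Slc38a9 read 7.37 and 7.96 in control mucosa and 7.42 and 7.30 in control tumours, which overlapped (-0.31 ± 0.28, adjusted p = 0.455). The taurine carrier Slc6a6 read 11.93 and 12.25 against 12.004 and 12.09 (-0.04 ± 0.32), and its other probe set over the filter gave -1.68, so no direction is given for it. The creatine carrier Slc6a8 read 13.66 and 13.52 against 12.73 and 13.05 (-0.70 ± 0.32, adjusted p = 0.147). Within family 38 the 5 members that were not called ran from -0.52 (Slc38a6) to -0.12 (Slc38a7). They included the system N carrier Slc38a3 (-0.44 ± 0.30) and Slc38a10 (-0.14 ± 0.25). Dimmer probe sets of Slc38a10 over the filter gave -0.89 to -0.30, so the size of its difference depends on the probe set. The called rises of this family were thus those of its 3 system A members.

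Of the other peptide and histidine carriers, none was called. The lysosomal carrier Slc15a3 (PHT2) read 6.90 and 6.14 in control mucosa and 8.28 and 6.98 in control tumours (1.10 ± 0.74), and its relative Slc15a4 (PHT1) had overlapping arrays (0.18 ± 0.34). Slc15a2, which encodes the high-affinity peptide carrier PEPT2, read 8.17 and 8.57 in control mucosa, 7.73 and 7.36 in tumours of control mice, 3.70 and 7.95 in deficient mucosa, and 6.42 and 6.57 in deficient tumours. A single deficient mucosa array stood far below its partner, and the standard error was 1.13. The 17 transporters under the filter, which include the glutamate carrier Slc1a2 and the GABA and betaine carriers Slc6a11, Slc6a12 and Slc6a13, ranged from 0.17 to 6.40 over all arrays. Slc15a5 was among them, at 3.996 and 4.58 in control mucosa and 0.94 and 0.26 in control tumours, and with no filter it was called as lower (-3.69, adjusted p = 0.0262), although every one of its values lay below the filter value.

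In HAI-1 deficient mice, tumours differed from mucosa in 11 of the 48 transporters, of which 10 fell and 1 rose, against 4.20% of all genes called, 1.75% as lower and 2.45% as higher. Brush border and basolateral carriers made up 6 of the 10. Tumours lay above mucosa without overlap for 11 transporters, or 22.9%, against 36.6% of all genes, and below it for 21, or 43.8%, against 18.9%. Slc15a1 fell 4.84-fold (-2.27 ± 0.30, adjusted p = 0.0269), Slc6a19 4.66-fold (-2.22 ± 0.42, 0.0386), Slc6a20a 4.08-fold (-2.03 ± 0.28, 0.0281) and Slc3a1 3.49-fold (-1.80 ± 0.36, 0.0428). Slc7a8 fell 5.07-fold (-2.34 ± 0.39, adjusted p = 0.0309) and Slc43a2 4.68-fold (-2.23 ± 0.29, 0.0281). Slc7a15 fell 7.43-fold (-2.89 ± 0.37, 0.0268), Slc6a4 5.63-fold (-2.49 ± 0.31, 0.0268) and Slc36a1 3.72-fold (-1.90 ± 0.38, 0.0416).

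Slc38a4 was the riser, at 6.05-fold (2.60 ± 0.35, adjusted p = 0.0281). Slc7a9 (-1.13 ± 0.25, adjusted p = 0.0510), Slc3a2 (-1.18 ± 0.28, 0.0610) and Slc7a7 (-1.15 ± 0.32, 0.0834) did not pass, nor did Slc36a4 (1.37 ± 0.38, 0.0850), Slc7a6 (1.14 ± 0.33, 0.0906), Slc1a4 (1.25 ± 0.50, 0.174) or Slc7a5 (1.10 ± 0.46, 0.189). For these 7 genes the tumour and mucosa arrays of deficient mice did not overlap. Slc38a1 (0.27 ± 0.29) and Slc1a5 (0.12 ± 0.35) had overlapping arrays in deficient mice.

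The 2 tumour comparisons share no arrays. Both came from the same fit, so each gene had the same standard error in both, and their calls are not independent. Of the 24 transporters called in control mice, 10 were called in deficient mice, which is 41.7% of the first list and 90.9% of the second. Over all genes, 13.6% of those called in control mice were called in deficient mice. These 513 genes were most of the 551 called in deficient mice, so the second share is not particular to the transporters. All 12 fallers had the same sign in deficient mice and 9 were called there. Of the 12 risers, 10 had the same sign and 1 was called. Slc1a3 (-0.14 ± 0.33) and Slc36a3 (-0.51 ± 0.57) had the opposite sign. Over all genes, 2775 were called as higher in control tumours and 321 in deficient tumours, and 1002 and 230 as lower. Fewer called rises in deficient mice were thus seen over all genes too. Slc6a7, which encodes the neuronal proline carrier PROT, was called in deficient mice and not in control mice. It read 6.68 and 5.93 in control mucosa, 6.54 and 6.72 in tumours of control mice, 7.18 and 7.76 in deficient mucosa, and 5.25 and 5.67 in deficient tumours, and fell 4.04-fold in deficient mice (-2.01 ± 0.35, adjusted p = 0.0328) against 0.33 ± 0.35 in control mice.

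**Figure D3:**
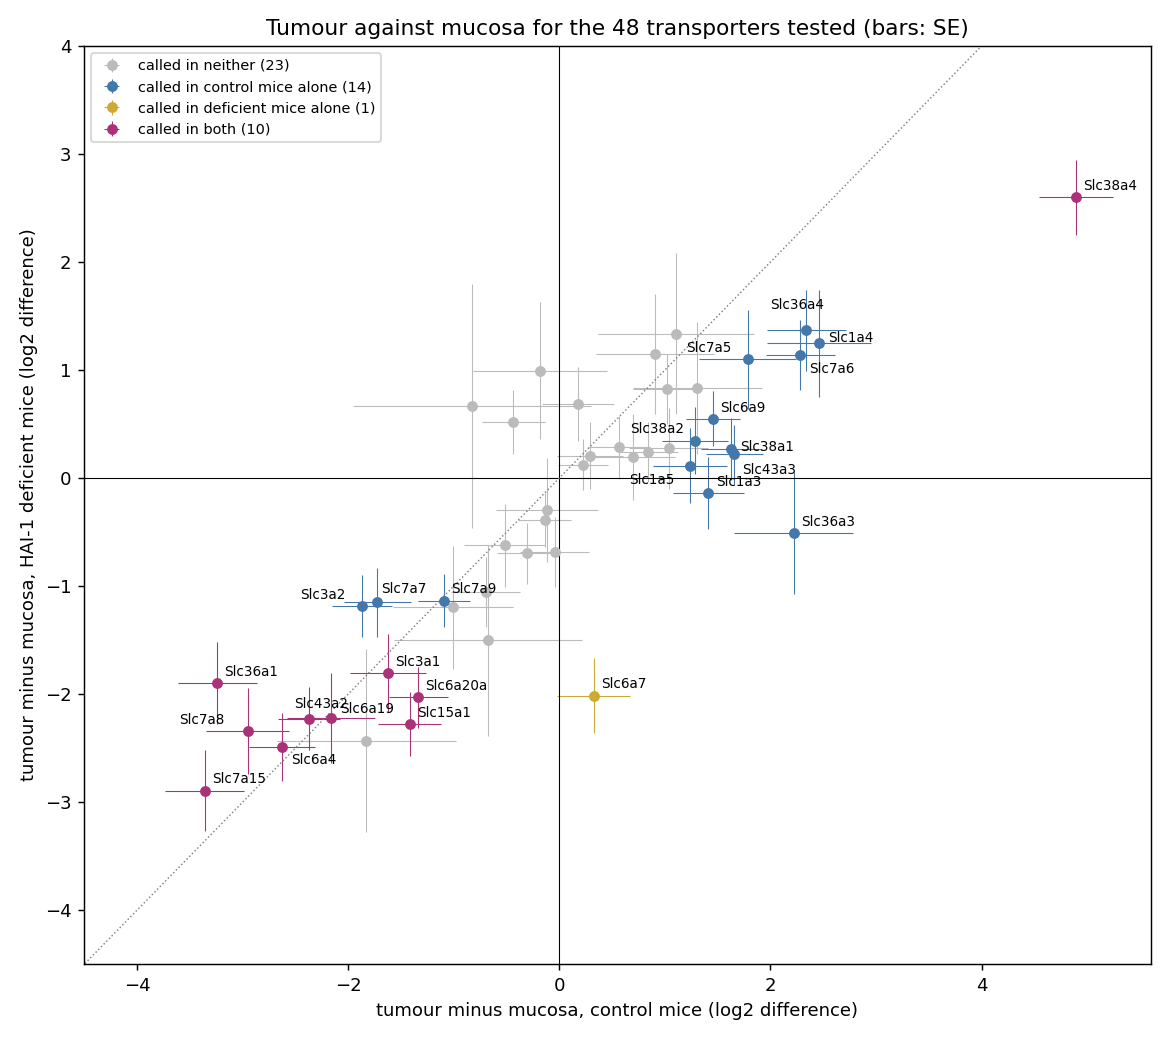
Difference between tumour and mucosa in control mice (horizontal axis, log2) and in HAI-1 deficient mice (vertical axis, log2) for each of the 48 transporters tested, with bars for the standard error and a dotted line of equality; colours mark where a gene was called. The 10 genes called in both lie in the lower left and, for Slc38a4 at 4.89 and 2.60, the upper right.

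The calls in deficient mice rested on all of the arrays. Without any 1 of the 4 arrays compared, or without either control mucosa array, 0 to 2 of the 11 passed (adjusted p of the lost calls 0.0523 to 0.167), and 0 passed with no filter on low values or with only the groups compared. Without the second deficient tumour, 2 passed. Without either control tumour, 9 passed. All 11 kept their direction in every case. Spike-in signal divides each pair in deficient mice into a low and a high array, and the 11 differences had the same sign in both. For all 11 genes the tumour and mucosa arrays did not overlap, so both outcomes were fixed in advance. They say nothing about the effect of single arrays or of the spike-in difference.

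HAI-1 loss in non-tumour mucosa gave no called transporter of 48 (limma), against 1.05% of all genes. At an unadjusted p under 0.05 there were 18 transporters, 37.5% of the 48, against 17.5% of all genes, and the smallest adjusted p was 0.0718. The transporters with the smallest p were Slc38a4 (1.65 ± 0.35, adjusted p = 0.0718), Slc38a1 (1.35 ± 0.29, 0.0721) and Slc7a6 (1.40 ± 0.33, 0.0865) among those higher in deficient mucosa. Among those lower they were Slc43a2 (-1.10 ± 0.29, 95% interval -1.79 to -0.42, adjusted p = 0.114), Slc7a15 (-1.14 ± 0.37, 0.177) and Slc36a1 (-1.02 ± 0.38, 0.219). Other probe sets of the same genes gave 0.57 for Slc38a4, 0.75 for Slc38a1, 1.49 for Slc7a6 and -0.26 for Slc43a2, so the sizes for Slc38a4, Slc38a1 and Slc43a2 depend on the probe set. In each of these 6 genes the deficient and control mucosa arrays did not overlap. Over the 48 there were 22 transporters with both deficient arrays higher, or 45.8%, against 30.9% of all genes, and 14 with both lower, or 29.2%, against 17.3%.

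Among the growth-associated exchangers, deficient minus control mucosa was 1.41 ± 0.46 for Slc7a5 (adjusted p = 0.174), 1.33 ± 0.50 for Slc1a4 (0.225) and 1.30 ± 0.35 for Slc1a5 (0.116). For the proline and tryptophan carrier Slc36a4 it was 1.22 ± 0.38 (0.157). Brush border carriers had smaller differences, with a median of -0.32 for the 6. That of Slc6a19 was -0.14 ± 0.42 with a 95% interval of -1.12 to 0.84, and that of Slc3a1 was -0.26 ± 0.36 with an interval of -1.10 to 0.59. The dopamine transporter Slc6a3 read 6.28 and 5.80 in control mucosa, 5.59 and 2.82 in tumours of control mice, 8.52 and 8.18 in deficient mucosa, and 5.20 and 6.63 in deficient tumours. Both deficient mucosa arrays of Slc6a3 lay above all others (2.31 ± 0.85, adjusted p = 0.219), and the difference passed when low values were raised to the filter value (adjusted p = 0.0438). Slc38a4 and Slc38a1 passed with the stricter filter (adjusted p = 0.0395 and 0.0410) and with a mean-variance trend (0.0346 and 0.0354). This comparison and the tumour comparison in control mice share the control mucosa arrays, so their values are given side by side and not as support for each other. Eif4ebp1 was the 1 gene called here from the lists of partner genes (1.72 ± 0.28, adjusted p = 0.0448).

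HAI-1 loss in tumours also gave no called transporter, and 0% of all genes were called by limma. At an unadjusted p under 0.05 there were 4 transporters, 8.33%, against 6.11% of all genes. Slc15a1 had the smallest p, with deficient tumours lower by 2.64-fold (-1.40 ± 0.30, 95% interval -2.09 to -0.71, adjusted p = 0.779). The others were Slc6a7 (-1.17 ± 0.35), Slc43a2 (-0.96 ± 0.29) and Slc6a20a (-0.83 ± 0.28), and a dimmer probe set of Slc43a2 gave -0.17. Those with the smallest p among higher values were Slc6a3 (1.71 ± 0.85), Slc38a3, a system N glutamine carrier (0.56 ± 0.30), and Slc7a5 (0.73 ± 0.46). The tumour arrays of Slc6a3 overlapped between genotypes, and its difference shrank to 1.43-fold with dim arrays raised to the filter value. Both deficient arrays were lower than both control tumours for 15 transporters, or 31.2%, against 19.4% of all genes, and higher for 2, or 4.17%, against 18.6%. Slc6a19 differed by -0.20 with a 95% interval of -1.18 to 0.78.

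**Figure D4:**
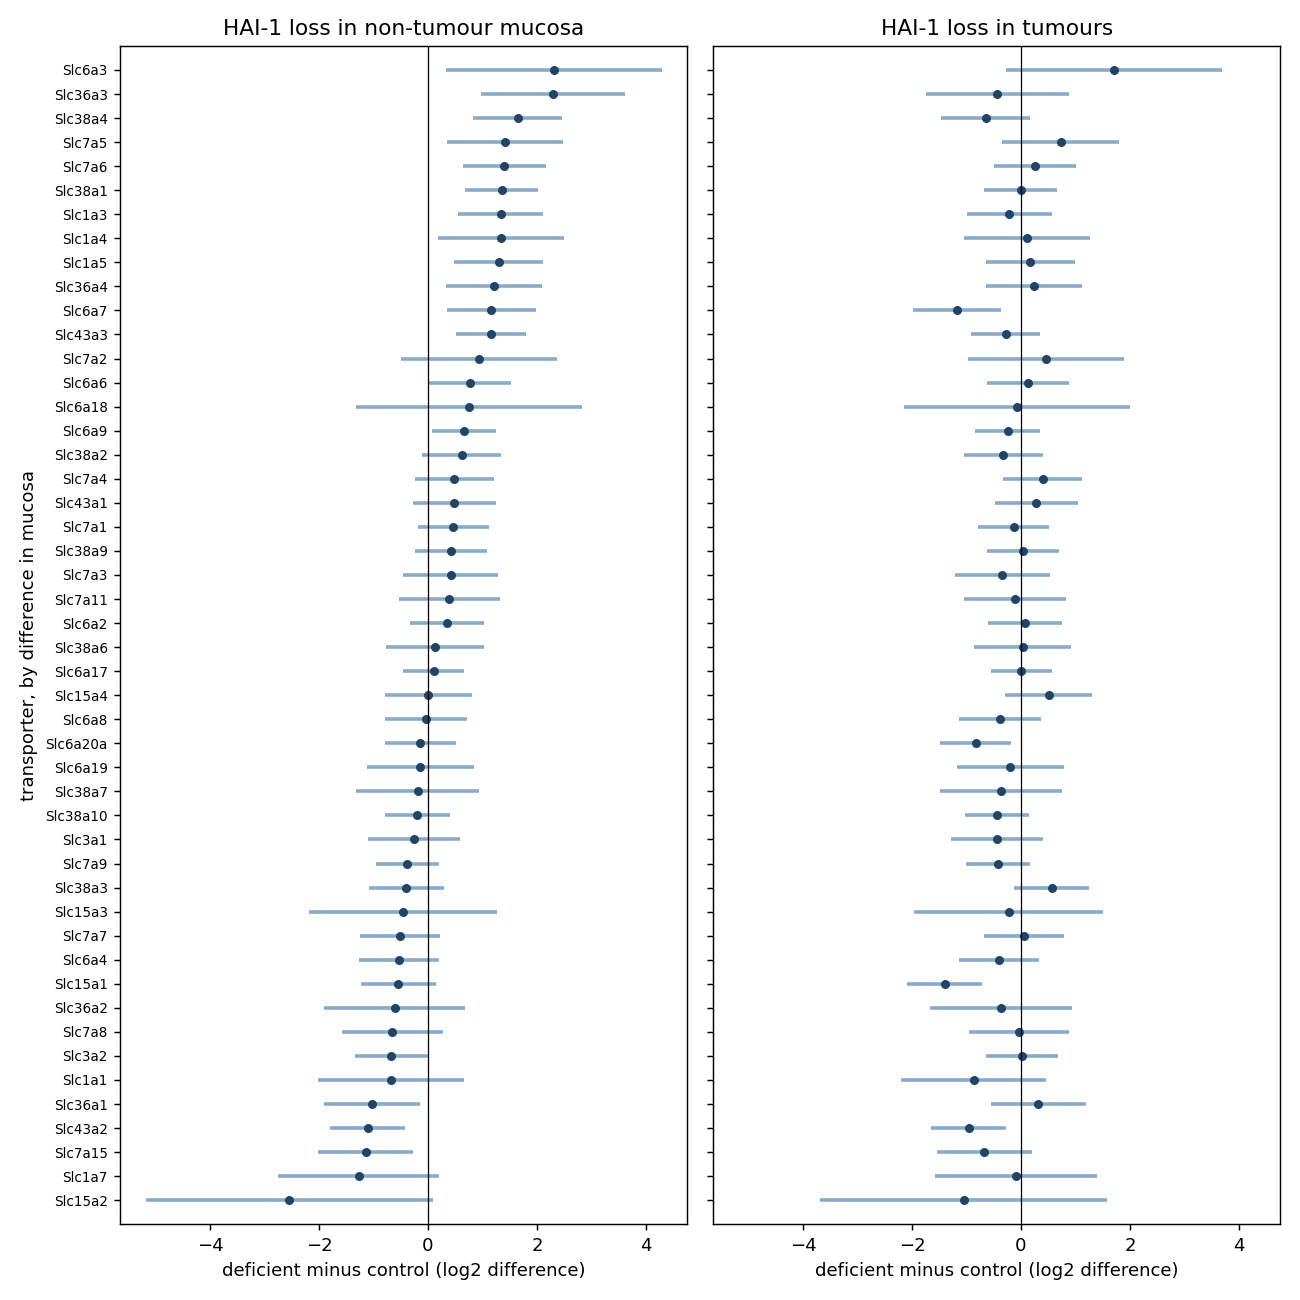
Deficient minus control difference (horizontal axis, log2) for the 48 transporters in non-tumour mucosa and in tumours, with points for the fitted difference and lines for the 95% interval; genes are ordered by the difference in mucosa. None was called in either tissue, and Slc15a1 in tumours lies at -1.40.

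The interaction asks whether HAI-1 loss had a different effect in tumours than in mucosa. None of the 48 transporters was called (limma), as was the case for 0% of all genes. At an unadjusted p under 0.05 there were 9, or 18.8%, against 9.23% of all genes, and the median was -0.32 against -0.12. The smallest p belonged to Slc6a7 (-2.34 ± 0.49, adjusted p = 0.267), Slc38a4 (-2.30 ± 0.50, 0.269) and Slc43a3 (-1.44 ± 0.39, 0.333) on the negative side. On the positive side it belonged to Slc36a1 (1.34 ± 0.53, 0.506), Slc38a3 (0.96 ± 0.42, 0.551) and Slc3a2 (0.69 ± 0.40). For Slc38a4 a negative value means that deficient mucosa was above control mucosa while deficient tumours were below control tumours, so the gap between tumour and mucosa was 4.89 in control mice and 2.60 in deficient mice. The other probe set of Slc38a4 gave gaps of 4.16 and 3.46, so the size of this contrast depends on the probe set. The interaction is the test of whether a riser's difference changed with genotype, and it passed for none of the 12.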

How the data were processed

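RNA from 8 samples was hybridised to Affymetrix mouse arrays. Per the labels, RNA was extracted with Trizol and a column kit, and 6 ug was labelled with biotin in 1 cycle. The authors deposited a log2 signal for each of 45101 probe sets on every array. MAS5 and RMA are named in the submitters' processing notes, without version or role. The linear trimmed mean of 500.003 to 500.004 on every array is of the MAS5 kind. Detection calls were not used here, so signal over background is unknown and low values carry large log2 errors.

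Transporters and gene lists were chosen with earlier results of these data known. Letter suffixes such as that of Slc6a20a were kept. Of 34958 probe sets with 1 gene, those with a mean under the 40th percentile (5.20 log2) were removed, and the brightest per gene was used. A model with 4 group means was fitted to the 13119 genes with limma 3.58.1 in R 4.3.3 (4 residual and 3.52 prior degrees of freedom) for 5 comparisons. All tests were two-sided, Benjamini-Hochberg adjustment ran over all tested genes, and calls were made at an adjusted p under 0.05. The script was tested on simulated data. Where a lower group had arrays under the filter value, a bound was computed with those arrays raised to it. Spint1 was compared with an exact permutation test over 70 assignments. Intervals are 95%.

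Named transporters were 18 picked for their roles, plus up to 8 rises and 8 falls per comparison among those called, or the 3 smallest p in each direction where none was called, and up to 4 called genes per partner list. In 17 alternatives the normalization, filter, floor, choice of probe set, prior, arrays and added terms were changed. Promoters came from RefSeq, build GRCm38.p6, matched by gene symbol, and figures were drawn with python 3.11.15.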

Additional observations from a re-analysis of the deposited data

How the results depend on the processing

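Of the 24 calls in control tumours, 13 held and 24 kept their sign under the alternatives run, with counts of 20 to 26 under other settings and 16 to 25 without replicate arrays (16, of which 15 shared, without the second control tumour, whose Gapdh ratio was high). In deficient mice 11 were called, 9 to 14 under most settings, 0 with no filter, 0 with only the groups compared, and 0 to 9 when single arrays were left out; none of the 11 held under every alternative and all kept their sign. Leaving out arrays or groups leaves fewer degrees of freedom, with the lone array of a group assumed to vary like the others, and no filter means more genes tested. HAI-1 loss in mucosa gave 2 calls with a 60th percentile filter (Slc38a1 and Slc38a4), 1 with low values raised to the filter value (Slc6a3) and 2 with a mean-variance trend (Slc38a1 and Slc38a4), and 0 elsewhere; the cause was not tested. HAI-1 loss in tumours and the interaction gave 0 calls throughout, and no result reversed. The Spint1 difference was -0.97 to -0.74 without single arrays, and its exact p was 0.0571 without either control mucosa array or the second control tumour. With the replicate block 26 and 9 were called in control and deficient mice, and 0 in the other comparisons. The labels do not pair the arrays. The correlation of replicate differences between groups was -0.14 to 0.22, which cannot decide whether arrays with the same number were paired. The arrays with high spike-in signal were all the second of their group. Within the low spike-in arrays, 24 of 24 calls in control mice kept their sign. This was fixed in advance, since the tumour and mucosa arrays of these genes did not overlap. In both genotypes, the signs kept when single arrays were left out were fixed in the same way.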
